A study of Homo sapiens with 2 samples.

Results

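The genes described here are 10 members of the kynurenine pathway and of the aryl hydrocarbon receptor (AHR) response, namely KYNU, IDO1, TDO2, AFMID, KMO, AHR, AHRR, CYP1A1, CYP1B1 and TIPARP. They were taken by name out of 49627 genes listed in 2 RNA-seq libraries of MDA-MB-231, an established line of human breast cancer cells without hormone receptors. The set was chosen by the KYNU values themselves, since KYNU was already known to be much lower in 1 of the libraries, so that difference is given below as a description. One library came from cells with stable knockdown of the RNA-binding protein RBMS1 and the other from control cells, both grown in L15 medium with serum and without added carbon dioxide. By the methods of the study, such cells were made by lentiviral infection with shRNA in the pLKO.1 plasmid, the control carried the empty pLKO.1 vector, and both were kept under puromycin. No interferon treatment is named in the labels of either library. Neither group has a second library, so there was no replicate spread and no test between the groups. Each difference describes these 2 libraries, and fewer cells that express a gene cannot be told apart from less of its RNA per cell.

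The kynurenine pathway is the main route by which cells break down tryptophan. IDO1, or TDO2 in the liver and in some tumours, opens the ring of tryptophan, and AFMID turns the product into kynurenine. KYNU and KMO both use kynurenine, on routes that lead to anthranilic acid and to quinolinic acid and NAD. Kynurenine is also a ligand of AHR, a transcription factor that waits in the cytosol with HSP90 and binds DNA together with ARNT. CYP1A1, CYP1B1, TIPARP and AHRR are among the genes it switches on, and both TIPARP and AHRR act back on AHR as inhibitors. In tumours this route is best known for loss of tryptophan and gain of kynurenine around T cells.

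Expression is given as FPKM, the fragments per kilobase of transcript that Cufflinks estimated, scaled to the size of each library and summed over the transcripts of a gene. The length-weighted FPKM multiplies each transcript's FPKM by its length in kb and so counts fragments, whether they were assigned to long or to short transcripts. Cufflinks gives each transcript an interval for the uncertainty within its library, and the intervals quoted for a gene are sums of these bounds. The log2 ratio compares FPKM + 1 in the knockdown library with FPKM + 1 in the control library. RBMS1, the targeted gene, was at 3.76 FPKM in the knockdown and 24.1 FPKM in the control library, or 15.6% of the control level. Genes expected to be high in MDA-MB-231 (VIM, CD44, AXL, ZEB1 and KRT18) lay between 10.9 and 563.5 FPKM in both libraries, and ESR1, PGR and CDH1 lay below 0.1 FPKM. EPCAM was low but present, at 1.93 FPKM in the knockdown and 3.66 FPKM in the control library. None of 7 markers of other cell types (PTPRC, CD3E, CD79A, CD14, PECAM1, COL1A1 and ALB) passed 1 FPKM in either library, with CD3E at 0 in both. The files hold no counts and the number of reads is unknown. Coverage per unit of FPKM had a median of 12.3 for the knockdown and 11.3 for the control.

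KYNU (ENSG00000115919) encodes kynureninase and lies on the plus strand of chromosome 2 of GRCh38 from 142877498 to 143055832. Its transcripts part ways after an exon that ends at 142960770. The long form continues at 142985084 and codes for kynureninase of 465 amino acids, as in ENST00000409512 and ENST00000264170. An alternate form continues at 142964653 instead, as in ENST00000621320. The 2 junctions are shown because they divide the KYNU RNA of the control library. Each is read from GENCODE 29 transcripts, 5′ to 3′, with 30 bases of the shared exon in lower case and 30 bases of the next exon in capitals.
KYNU long form: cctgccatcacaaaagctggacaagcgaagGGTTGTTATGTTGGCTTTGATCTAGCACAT
KYNU alternate-exon form: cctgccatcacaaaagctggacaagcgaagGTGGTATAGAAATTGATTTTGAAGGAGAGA

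KYNU was at 0.250 FPKM in the knockdown and at 3.66 FPKM in the control library. The knockdown library thus held 6.83% of the control level, and its log2 ratio was −1.90. The interval was 0.0330 to 1.02 FPKM for the knockdown and 2.70 to 5.31 FPKM for the control, without overlap. The 1 FPKM added before taking the log2 weighs heavily on so low a gene, since without it the control value was 14.6 times the knockdown value. By length-weighted FPKM, KYNU was at 0.358 in the knockdown and 8.07 in the control library, or 4.44%. Of the 11186 genes whose mean reached 1 FPKM, KYNU had rank 148 from the largest decrease, and rank 32 among the 10882 of these above 0 in both libraries.

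Every KYNU transcript above 0 in the control library was lower or was not listed in the knockdown library. ENST00000409512, of 15 exons, was at 2.21 FPKM in the control library (interval 1.75 to 2.68) and at 0.141 FPKM in the knockdown library (0.0330 to 0.250). It held 60.4% of the control KYNU FPKM. ENST00000264170, of 14 exons and 15316 nt, was at 0.211 FPKM in the control library and 0.0033 FPKM in the knockdown library. An assembled transcript of 9 exons that takes the alternate junction was at 1.24 FPKM in the control library. It shares all 7 introns of ENST00000621320 and adds an exon at the annotated start of KYNU. ENST00000621320 itself was at 0.106 FPKM in the knockdown and 0 in the control library, and codes for 236 amino acids. Its interval in the knockdown library began at 0.

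Summed by junction, the long form was at 2.42 FPKM and the alternate form at 1.24 FPKM in the control library, 66.2% and 33.8% of KYNU. In the knockdown library the long form was at 0.145 FPKM and the alternate form at 0.106 FPKM. Both forms were therefore lower, and the share of the alternate form in the knockdown library, 42.2%, rests on a mean coverage of 1.34 reads over ENST00000621320. At that coverage a change of the balance between both forms was not detectable.

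**Figure D1:**
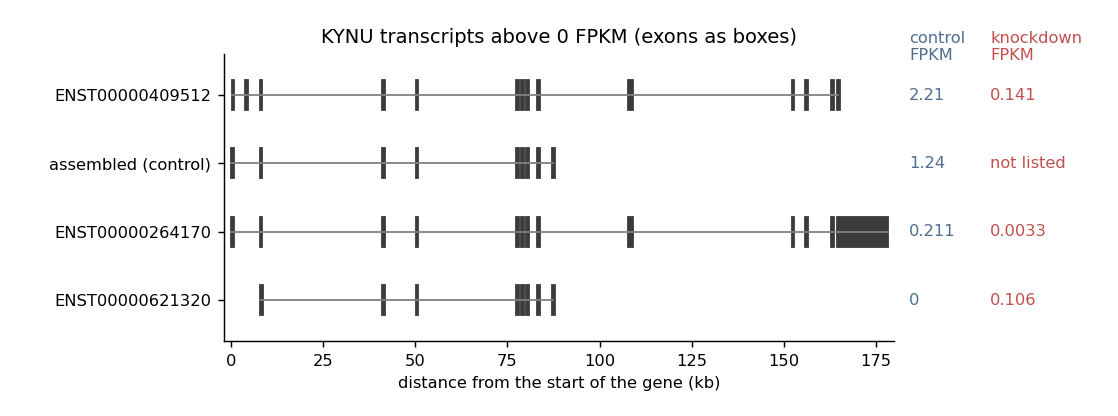
KYNU transcripts above 0 FPKM in either library, with exons as boxes (those under 0.7 kb drawn at 0.7 kb) against the distance from the start of the gene in kb, and their FPKM in the control and knockdown libraries at the right. ENST00000409512 is at 2.21 FPKM in the control library against 0.141 FPKM in the knockdown library, and the assembled transcript at 1.24 FPKM ends at the alternate exon.

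The authors deposited a second table of FPKM for the same libraries, on a scale about 1.74 times the per-library files in the knockdown and 1.77 times in the control library. It lists transcripts that their comparison picked, so a low value there is no independent support. KYNU has 3 transcripts in it. ENST00000409512 stands at 0.278 FPKM in the knockdown and 4.09 FPKM in the control library, ENST00000264170 at 0.00652 and 0.386 FPKM. ENST00000375773, which codes for a shorter protein of 307 amino acids, is listed there at 0 and 1.12 FPKM, while the per-library files list it at 0 in both libraries.

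The nearest protein-coding genes, 3 on each side of KYNU, had log2 ratios between −0.07 and 0.34. SPOPL, the farthest of them before KYNU, was at 6.01 FPKM in the knockdown and 6.35 FPKM in the control library. GTDC1, on the other side, was at 5.84 and 4.38 FPKM, and ZEB2, a transcription factor of the mesenchymal state, at 2.95 and 3.09 FPKM. LRP1B was below 0.1 FPKM in both libraries, and NXPH2 and ARHGAP15, the next gene after KYNU, were listed at 0 in both. For all 6 neighbours the intervals of both libraries overlapped. The 5 protein-coding genes above 0 in both libraries with a log2 ratio closest to that of KYNU were COX16, SPANXB1, IL32, MRPL50 and IL11, between −1.99 and −1.79. With 2 libraries this likeness is a single ratio, and SPANXB1 has near-identical copies between which reads could be divided. All 5 were expressed more strongly than KYNU, with control values from 18.8 to 43.5 FPKM.

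Of the other kynurenine pathway enzymes among the members, AFMID alone reached a mean of 1 FPKM. IDO1 (ENSG00000131203), the interferon-induced enzyme of the pathway's entry, was at 0.0506 FPKM in the knockdown and 0.119 FPKM in the control library. TDO2 (ENSG00000151790, chromosome 4 from 155854738 to 155920406, plus strand) was at 0.272 FPKM in the knockdown and 0.0511 FPKM in the control library. Both stayed below a mean of 1 FPKM and their intervals overlapped between the libraries, so no difference was detectable for either gene. KMO (ENSG00000117009, chromosome 1 from 241532134 to 241595642, plus strand), which adds a hydroxyl group to kynurenine, was listed at 0 in both libraries, with upper bounds of 0.576 FPKM in the knockdown and 0.633 FPKM in the control library.

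The IDO1 value came from a different transcript in each library, while 1 TDO2 transcript was above 0 in both. The IDO1 value of the control library came from ENST00000522495, with 403 codons and a mean coverage of 1.33 reads. The knockdown value came from the shorter ENST00000521636, with a mean coverage of 0.669 reads. For TDO2, ENST00000536354 with 406 codons was at 0.0478 FPKM in the knockdown and 0.0511 FPKM in the control library, and the rest of the knockdown value came from 2 shorter transcripts whose lower bounds are 0.

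AFMID (ENSG00000183077), the formamidase that yields kynurenine, was the highest of the 5 kynurenine pathway enzymes and the only member with a mean of at least 1 FPKM that was higher in the knockdown library. It was at 7.46 FPKM in the knockdown (interval 5.49 to 10.98) and 4.72 FPKM in the control library (3.30 to 7.77), and the intervals overlapped. The gene lies on the plus strand of chromosome 17 from 78187317 to 78207701. Its second exon ends at 78191060 and is joined either to the exon at 78202499 in the long form or straight to the last exon at 78206911 in a form of 3 exons. The sequences are shown because the form of 3 exons carries the difference. Lower case marks the shared exon and capitals the next exon.
AFMID long form: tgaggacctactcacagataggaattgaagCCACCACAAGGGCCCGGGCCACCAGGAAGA
AFMID 3-exon form: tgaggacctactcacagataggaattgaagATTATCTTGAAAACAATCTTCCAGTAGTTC

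The form of 3 exons, ENST00000591952, has 84 codons against 303 in the long ENST00000409257. It was at 4.89 FPKM in the knockdown (interval 3.60 to 6.19) and listed at 0 in the control library, with an upper bound of 0.148 FPKM. The control library had ENST00000589664, a transcript without a coding sequence, at 2.48 FPKM, and this one was listed at 0 in the knockdown library. The long transcripts of 11 exons, ENST00000409257 and ENST00000327898, summed to 2.57 FPKM in the knockdown and 2.24 FPKM in the control library. They differed far less between the libraries than the form of 3 exons did. The second table of the authors lists ENST00000591952 at 6.96 FPKM in the knockdown and 2.59 FPKM in the control library, so the 0 of the control file is not shared by both of their estimates.

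AHR (ENSG00000106546), the receptor, was at 16.6 FPKM in the knockdown (interval 15.4 to 18.3) and 29.3 FPKM in the control library (27.3 to 31.98). AHR RNA thus stood at 56.5% of its control value, with a log2 ratio of −0.79. The gene lies on chromosome 7 from 16916359 to 17346152 on the plus strand, and its main transcript ENST00000242057 codes for 848 amino acids. That transcript was at 12.04 FPKM in the knockdown (11.3 to 12.7) and 14.6 FPKM in the control library (13.8 to 15.4). ENST00000463496, annotated as a target of nonsense-mediated decay, was at 4.54 and 4.60 FPKM.

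In the per-library estimates, most of the AHR difference came from 1 assembled transcript. It was at 10.1 FPKM in the control library, shares 9 of its 10 introns with ENST00000242057 and ends 1563 nt before it, and no such transcript was assembled in the knockdown library. With reference transcripts only, the log2 ratio of AHR was −0.20. By length-weighted FPKM, AHR stood at 97.4 in the knockdown and 161.5 in the control library, or 60.3%. Adding short assembled transcripts that lie inside AHR without sharing an intron gave 133.1 and 166.1, a ratio of 0.802. The second table of the authors lists ENST00000242057 at 28.2 and 47.2 FPKM, or 59.7%. There the reference transcript itself was lower by about as much as the gene, so the attribution to the assembled transcript is not shared by both of their estimates. AHR overlaps another protein-coding annotation on its own strand and an antisense RNA, and whether the libraries keep the strand was not given.

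CYP1B1 (ENSG00000138061), an AHR target that oxidises estrogens and polycyclic hydrocarbons, had the highest level of the 10 genes. It was at 69.5 FPKM in the knockdown (interval 66.4 to 74.0) and 118.9 FPKM in the control library (113.8 to 124.7), which is 58.4% of the control value, with a log2 ratio of −0.77. The gene lies on the minus strand of chromosome 2 from 38066973 to 38109902. All of its FPKM came from 1 transcript in both libraries, ENST00000610745 of 3 exons and 543 codons, so no choice among its own transcripts moved the ratio. CYP1B1 and TIPARP both overlap antisense genes. Over the settings tried, the log2 ratio lay between −0.80 and −0.61.

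CYP1A1 (ENSG00000140465, chromosome 15 from 74719542 to 74725610, minus strand), the classical AHR target, was at 5.53 FPKM in the knockdown (interval 4.71 to 6.67) and 7.17 FPKM in the control library (6.19 to 8.50). The knockdown library held 77.1% of the control level, with a log2 ratio of −0.32, and the intervals overlapped. Its 2 transcripts above 0 in the per-library files have the same coding sequence of 512 codons and differ in their ends. ENST00000379727 was at 2.98 and 3.22 FPKM in the knockdown and control libraries, ENST00000395048 at 2.55 and 3.95 FPKM. Among the transcripts that the second table holds are ENST00000564596 at 0.158 and 1.11 FPKM and ENST00000567032 at 0 and 0.212 FPKM. CYP1A1 was far below CYP1B1 in both libraries.

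TIPARP (ENSG00000163659, chromosome 3 from 156673235 to 156706770, plus strand) encodes a mono-ADP-ribosyltransferase that is induced by AHR and restrains it. It was at 19.9 FPKM in the knockdown (interval 18.6 to 21.4) and 29.2 FPKM in the control library (26.4 to 32.05), or 68.3% of the control value, with a log2 ratio of −0.53. The main transcript, ENST00000295924 of 657 codons, was close in both, at 12.7 FPKM in the knockdown and 13.4 FPKM in the control library. The control library had a further 8.21 FPKM in ENST00000481853, 4.76 FPKM in ENST00000542783 and 2.78 FPKM in ENST00000461166, and these 3 were listed at 0 in the knockdown library. The second table of the authors has ENST00000542783 at 0.996 FPKM in the knockdown and 6.74 FPKM in the control library, so that 0 is not shared by both of their estimates. It also has ENST00000495891 at 0.269 and 1.64 FPKM. The knockdown library instead had an assembled transcript at 7.23 FPKM whose 4 introns are all shared with ENST00000295924.

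The size of the TIPARP difference thus turned on the transcripts counted. The log2 ratio was −1.14 for the reference transcripts alone and −0.08 for the dominant transcript alone. It was −0.03 when assembled transcripts were assigned by exon overlap, which adds a transcript of 1 exon at 8.59 FPKM in the knockdown library. With all assembled transcripts inside the gene counted, TIPARP was higher in the knockdown, at 139.2 against 111.3 by length-weighted FPKM and a log2 ratio of 0.32. The direction of TIPARP therefore rests on which assembled transcripts are taken as its own. AHRR (ENSG00000063438, chromosome 5 from 304176 to 438291, plus strand), the other feedback inhibitor of AHR, was listed at 0 in both libraries, with upper bounds of 1.11 FPKM in the knockdown and 1.13 FPKM in the control library.

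**Figure D2:**
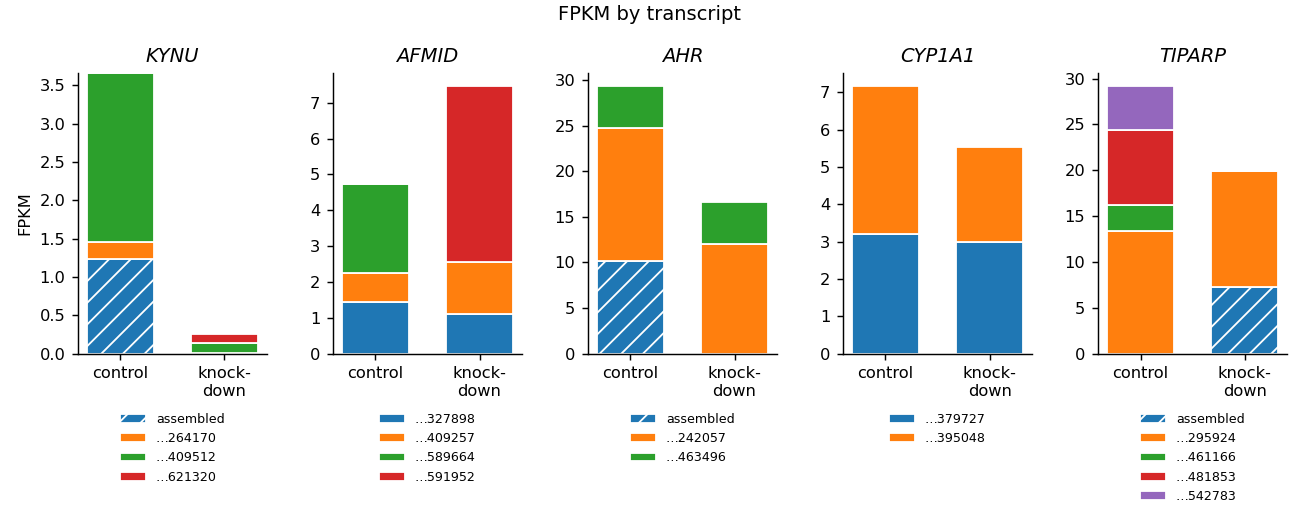
FPKM of KYNU, AFMID, AHR, CYP1A1 and TIPARP in both libraries, stacked by transcript (last 6 digits of the Ensembl identifier, hatched for assembled transcripts). The KYNU stack is smaller in the knockdown library in both of its main parts. ENST00000242057 of AHR is at 12.04 and 14.6 FPKM and ENST00000295924 of TIPARP at 12.7 and 13.4 FPKM. In these per-library estimates other transcripts carry most of the difference of both genes.

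Of the 10 genes, 6 had a mean of at least 1 FPKM. KYNU was the only one at least 2-fold lower, and none was at least 2-fold higher. Over all 11186 genes, 2.8% were at least 2-fold lower and 2.96% at least 2-fold higher in the knockdown library, and nothing is read from this comparison because KYNU was chosen for its difference. KYNU, AHR, CYP1B1 and TIPARP were lower with intervals that did not overlap, which holds for 11.5% of all 11186 genes (13.3% were higher in this way), and the median log2 ratio of all genes was 0.02, with 47.2% of them lower and 52.8% higher. From the highest level down, the control library had CYP1B1, AHR, TIPARP, CYP1A1, AFMID and KYNU, in which AHR and TIPARP had overlapping intervals, as did CYP1A1 and AFMID, and AFMID and KYNU. In the knockdown library the order was CYP1B1, TIPARP, AHR, AFMID, CYP1A1 and KYNU, in which AFMID and CYP1A1 overlapped.

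DNA bound by AHR with ARNT carries the core GCGTG, or CACGC on the other strand. RefSeq windows (GRCh38.p14) from 250 bases before to 50 bases after a start were at hand for 8 of the 10 genes, 11 windows in all. The core stands on either strand in 6 of these windows, which belong to TIPARP, AHRR, AHR, CYP1A1 and AFMID, and in 36.5% of all 35116 such windows. It is not in the windows of KYNU, KMO and TDO2, nor in the TIPARP windows that begin at 156674676 and 156676414. CYP1A1 and TIPARP are both known AHR targets above 5 FPKM in both libraries. The matches before their RefSeq starts are printed with 12 bases on each side and the core in capitals. Positions are counted from the RefSeq start. ENST00000379727 of CYP1A1 starts at 74725610 and ENST00000295924 of TIPARP at 156674342. The printed matches therefore lie after the starts of these transcripts. The best known AHR sites of CYP1A1 lie farther upstream than this window. A match is a description of the letters and not a bound site.
CYP1A1, chr15:74725569-74725597, minus strand, 57 bases before the start: ccagggaaggagGCGTGgccacacgtaca
TIPARP, chr3:156674370-156674398, plus strand, 208 bases before the start: cgcgagaaaggaCACGCcccctcgcggga
TIPARP, chr3:156674436-156674464, plus strand, 142 bases before the start: cgaacgaacgcgCACGCgcgcgcaggggg

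The rest of the kynurenine and NAD route was expressed in part. Of 16 further genes of kynurenine transamination and NAD synthesis, 8 had a mean of at least 1 FPKM, 3 of them lower and 5 higher in the knockdown and none past 2-fold on the scale of FPKM + 1. Their median log2 ratio was 0.15. AADAT, a kynurenine aminotransferase, had the largest decrease, at 1.63 FPKM in the knockdown and 3.31 FPKM in the control library, or 49.4% of the control without the added 1 FPKM, with overlapping intervals. Assembled transcripts held 2.28 FPKM of the control value and 0.725 FPKM of the knockdown value, and by length-weighted FPKM the ratio was 0.671. KYAT3, another kynurenine aminotransferase, had the largest increase, at 10.4 FPKM in the knockdown (interval 9.53 to 11.4) and 7.91 FPKM in the control library (7.13 to 8.81).

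HAAO and QPRT, on the way from kynurenine to NAD, were below 0.2 FPKM, while NADSYN1, the last enzyme of that way, was at 9.23 FPKM in the knockdown and 8.004 FPKM in the control library. HAAO, which makes the precursor of quinolinic acid, was at 0.158 FPKM in the knockdown and 0.0966 FPKM in the control library. QPRT, which takes quinolinic acid into NAD synthesis, was listed at 0 in the knockdown and at 0.0887 FPKM in the control library. ACMSD, which leads away from NAD, was listed at 0 in both. NAMPT, the salvage enzyme that makes NAD from nicotinamide, had the highest level of the list. It was at 123.8 FPKM in the knockdown and 145.3 FPKM in the control library, a log2 ratio of −0.23, and NAPRT was listed at 0 in both libraries.

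Among 13 genes of tryptophan transport and use, 5 had a mean of at least 1 FPKM, 3 higher and 2 lower in the knockdown library, with a median log2 ratio of 0.25. SLC7A5, the light chain of the LAT1 transporter that carries tryptophan and kynurenine, was the only one with a 2-fold difference. It was at 190.6 FPKM in the knockdown (interval 180.7 to 200.6) and 82.0 FPKM in the control library (77.5 to 86.5), a log2 ratio of 1.21. Its reference transcripts differed in opposite directions. ENST00000565644 was at 88.1 FPKM in the knockdown and 10.6 FPKM in the control, ENST00000261622 at 40.5 and 61.7 FPKM. Assembled transcripts held a further 61.96 FPKM in the knockdown and 9.72 FPKM in the control. The 2-fold difference did not hold without them, at a log2 ratio of 0.82, which was −0.59 for the dominant transcript alone, and by length-weighted FPKM the ratio was 1.67. SLC3A2, the heavy chain of the same transporter, was at 69.4 FPKM in the knockdown and 51.2 FPKM in the control library, a log2 ratio of 0.43 with intervals that did not overlap. WARS, the tryptophanyl-tRNA synthetase, had the largest decrease of the list, with 25.1 and 26.4 FPKM and overlapping intervals. IL4I1, an oxidase that makes other AHR ligands from tryptophan, and GPR35, a receptor for kynurenic acid, were listed at 0 in both libraries.

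All 14 partners and chaperones of AHR had a mean of at least 1 FPKM, 5 of them lower and 9 higher in the knockdown and none by 2-fold, with a median log2 ratio of 0.06. PTGES3, the p23 co-chaperone of the HSP90 complex that holds AHR, had the largest decrease. It was at 58.5 FPKM in the knockdown (interval 55.5 to 61.8) and 109.7 FPKM in the control library (104.5 to 115.2), a log2 ratio of −0.89, and all of it came from ENST00000262033. ARNT, the DNA-binding partner, was at 5.25 and 7.55 FPKM (log2 ratio −0.45), with a ratio of 0.873 by length-weighted FPKM. Its transcript ENST00000358595 was at 5.25 and 4.49 FPKM, and ENST00000505755 was at 3.07 FPKM in the control library and not above 0 in the knockdown library. HSP90AB1 had the highest mean of both libraries in the list, at 537.3 FPKM in the knockdown and 507.7 FPKM in the control library. HSP90AA1 was at 401.6 FPKM in the knockdown (384.1 to 420.3) and 508.5 FPKM in the control library (486.4 to 531.8), a log2 ratio of −0.34. PTGES3, HSP90AA1 and HSP90AB1 have near-identical pseudogenes, so their values are uncertain to that extent. CUL4B, part of a ubiquitin ligase that AHR can join, had the largest increase, at 24.5 and 18.8 FPKM.

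Of 16 other genes reported to respond to AHR, 7 had a mean of at least 1 FPKM, 4 lower and 3 higher, with 2 of the lower and none of the higher past 2-fold on the scale of FPKM + 1 and with a median log2 ratio of −0.15. SERPINB2 was at 0.392 FPKM in the knockdown (interval 0.229 to 0.943) and 6.14 FPKM in the control library (5.48 to 7.22), a log2 ratio of −2.36. IL1B was at 0.570 FPKM in the knockdown (0.371 to 1.55) and 5.97 FPKM in the control library (4.79 to 7.999), a log2 ratio of −2.15. SERPINB2 is an inhibitor of plasminogen activators and IL1B an inflammatory cytokine, and both reached a mean of 1 FPKM through the control library alone, as did KYNU. NQO1, a detoxifying enzyme of the AHR battery and the highest gene of the list, was at 105.9 and 97.2 FPKM in the knockdown and control libraries, with overlapping intervals. ABCG2, a drug efflux pump, had the largest increase, at 4.20 FPKM in the knockdown (3.52 to 5.45) and 2.02 FPKM in the control library (1.66 to 2.98), which is 2.08-fold without the added 1 FPKM and a log2 ratio of 0.79 with it.

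Interferon gamma is the main inducer of IDO1. Of 10 genes of its signalling, 9 had a mean of at least 1 FPKM, 5 lower and 4 higher, none by 2-fold, with a median log2 ratio of −0.06. IRF1, a transcription factor that drives IDO1, had the largest decrease, at 14.3 FPKM in the knockdown and 17.6 FPKM in the control library, with overlapping intervals, and its ratio was 1.38 by length-weighted FPKM. SOCS3, a feedback inhibitor of cytokine signalling, had the largest increase, at 9.61 FPKM in the knockdown and 6.01 FPKM in the control library.

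The direction of the member differences was checked against other ways to build the gene values. Another pseudocount or filter cannot turn a direction, so only other scalings, other choices of transcripts and the interval bounds bear on it. Under each of these that was run, AHR and CYP1B1 were lower in the knockdown, as was KYNU, which was chosen for being lower. The range over all settings of the log2 ratio was −3.42 to −0.72 for KYNU and −0.83 to −0.20 for AHR. TIPARP lay between −1.14 and −0.03 except for the 0.32 described above. CYP1A1 was lower except when the interval bounds nearest to each other were compared, which gave 0.09. AFMID was higher except for −0.43 in that same comparison.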

How the data were processed

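RNA was sequenced from MDA-MB-231 cells in 2 libraries, which were grouped by their labels. The submitters' processing notes name TopHat2 2.0.9, Bowtie2 2.0.6, Cufflinks 2.1.1 and Cuffdiff 2.1.1. The authors deposited, per library, reference and assembled transcripts with FPKM, an interval and coverage, and a second table with FPKM per library beside their own log2 fold changes, p-values and q-values, which were not used here. Annotation, read length and strand are not given in the sources used here.

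Transcripts were joined to GENCODE 29 by Ensembl identifier, with the same start for 98.1% of the shared ones. Assembled transcripts went to the gene with which they share the most introns on the same strand, at least 1. Gene FPKM was the sum over these transcripts. The log2 ratio used a pseudocount of 1 FPKM, which understates differences of low genes, and genes with a mean of at least 1 FPKM entered counts and ranks. Length-weighted FPKM was FPKM times transcript length in kb, summed, and is approximate because Cufflinks uses an effective length. Sums were checked on simulated transcripts. Python 3.11.15 and pandas 2.3.3 were used.

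Named were all members, RBMS1, from each list the genes past 2-fold, with the largest decrease or increase, or with the highest mean, the 5 genes closest to KYNU in ratio, and 3 neighbours on each side. One gene picked by this rule is not reported here. Other genes named (SLC3A2, ARNT, HSP90AA1, NADSYN1, HAAO, QPRT, ACMSD, NAPRT, IL4I1 and GPR35) were added after their values were seen. The members and lists were chosen with earlier results of these data known. Pseudocounts, scalings, filters and transcript choices were varied. No interval here covers differences between cultures.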

Additional observations from a re-analysis of the deposited data

Results flagged for a closer look

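Assembled transcripts that lie inside a gene on its strand but share no intron with it were left out of the gene values, and they drew attention as signal outside the comparisons above. For 4 members they summed to more length-weighted FPKM in the knockdown library than in the control library. For AHR, counted from the start of ENST00000242057, they summed to 35.7 in the knockdown library, from 16 transcripts of 273 to 1579 nt, and to 4.52 in the control library, from 2. For TIPARP the sums were 59.5 from 8 transcripts and 10.2 from 3. For CYP1B1 there was 1 transcript of 303 nt in the knockdown library, at 5.82 length-weighted FPKM, and none in the control library. For AHRR, which overlaps PDCD6 and another annotation on its own strand, the sums were 1.63 and 1.25, from 2 transcripts each. The reference transcripts of AHRR are listed at 0, and whether the assembled ones belong to AHRR was not tested. KYNU was the reverse, with none in the knockdown and 4 in the control library that summed to 2.46.

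Of the 4953 genes with a mean of at least 1 FPKM that hold such transcripts, 44.7% had the larger sum in the knockdown library, and 16.3% had a sum at least 5 times as large there. Over all these genes the sum was 120490 for the knockdown and 65757 for the control. With them added, the length-weighted FPKM of TIPARP was 139.2 for the knockdown and 111.3 for the control, that of AHR 133.1 and 166.1, and that of CYP1B1 370.8 and 624.5.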

How the results depend on the processing

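No paired analysis was possible because neither group has a second library, and for the same reason none could be left out. Settings with length-weighted FPKM (also with assembled transcripts inside the gene), with genes above 0 in both libraries and with interval bounds were chosen after seeing the data. KYNU had a log2 ratio of −3.42 with 0.1 FPKM added, −0.72 with 5 FPKM added, −2.73 with TPM scaling, −2.74 by length-weighted FPKM and −3.08 with the transcripts inside the gene added. A filter at a mean of 5 FPKM left it out. The number of members at least 2-fold lower, 1 as reported, was 0 with 5 FPKM added or the filter at 5 FPKM, and 2 with reference transcripts only. The number at least 2-fold higher, 0 as reported, was 1 with the dominant transcript only, where AFMID had 2.56. SLC7A5 had −0.59 with the dominant transcript only and 0.82 with reference transcripts only, and IL1B −0.98 with 5 FPKM added. Transcripts inside the gene gave AHR −0.32 and TIPARP 0.32. The share of ENST00000409512 in the control KYNU FPKM, 60.4%, was 91.3% with reference transcripts only. Genes at least 2-fold lower and higher, 313 and 331 as reported, numbered 133 and 124 with 5 FPKM added, 671 and 662 with TPM scaling (in which 1 unit is a smaller amount), 741 and 757 with the dominant transcript only, 507 and 553 with reference transcripts only, 138 and 140 with the filter at 5 FPKM, and 171 and 169 among genes above 0 in both libraries. The cause of the other shifts was not tested. The scalings left the median of all genes between −0.01 and 0.03. For IDO1, TDO2, KMO and AHRR no difference was detectable, and since the number of reads is unknown, too little depth cannot be told apart from lack of expression.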
